A study of Mus musculus with 4 samples.

Results

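The sphere-selected mouse oral cancer lines NHRI-HN1 and NHRI-HN2 were set against each other gene by gene. Both lines went through the same selection, yet in the study NHRI-HN1 was the one that formed tumors in immunocompetent B6 mice, and NHRI-HN2 was not. In immunodeficient nude mice, too, only NHRI-HN1 formed tumors, so the contrast was not limited to hosts with intact immunity. A gene entered the comparison when its deposited log2 value was at least 8 in at least 1 of the 2 lines, which 7304 of 19505 measured genes did (37.45%). NHRI-HN1 was derived from the line M1-2 and NHRI-HN2 from the line M2-3. The parents came from 2 separate tongue tumors of C57BL/6 mice given the carcinogen 4-nitroquinoline 1-oxide (4-NQO) together with arecoline, the alkaloid of the areca nut. For the selection, parent cells grew in sphere culture in a medium with epidermal growth factor. The spheres were then returned to dishes with serum, the culture that the sample labels give for all 4 lines. RNA of each line was hybridized to 1 Affymetrix Mouse Clariom S array, so no value below has a replicate, a standard deviation or a p. Every difference is NHRI-HN1 minus NHRI-HN2 in deposited log2 units and describes 2 arrays. The difference holds the tumor of origin, the selection and the passage history of the lines together, and these cannot be told apart within this pair, so the values of M1-2 and M2-3 are given beside it.

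Squamous epithelium of the tongue is built by keratinocytes, which depend on the transcription factor p63, carry keratin filaments, join each other by desmosomes and hold to the basement membrane by hemidesmosomes. Carcinomas can lose these features and take on those of mesenchymal cells, a change known as epithelial-mesenchymal transition (EMT), in which E-cadherin gives way to N-cadherin and vimentin. Sphere culture is used to enrich cells that survive without attachment and are often described as stem-like. Interferon-stimulated genes form another program, switched on when the factor complex ISGF3 binds the interferon-stimulated response element (ISRE).

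Of the 7304 genes, 682 were at least 2 units higher in NHRI-HN1 (9.34%) and 862 at least 2 units lower (11.8%), so 21.1% were that far apart in either direction. These shares are the background for each gene group below. The median difference of all 7304 genes was -0.22, and 3763 genes (51.5%) lay closer than 1 unit. The largest differences were very large: 40 genes were at least 8 units higher and 53 at least 8 units lower, and 4 and 11 genes passed 12 units. Most of the genes past 2 units were under 8 in the other line. Such a gene entered through the line where it was high, so its direction followed from its entry. The counts within each gene group below carry this limit. NHRI-HN2 was under 5 for 181 of the 682 higher genes and NHRI-HN1 was under 5 for 224 of the 862 lower genes, while both lines reached 8 for 214 and 274. The lower quartile of the array was 3.16 in NHRI-HN1 and 3.02 in NHRI-HN2, so a difference against a value near 3 depends on the background of the array. At the limit of the size rule, Ech1 (2.00) and Sinhcaf (-2.00) were inside and Ltbp3 (1.98) and Smad1 (-1.99) outside.

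The arrays stood close to one level. The median of all probe sets was 4.75 in NHRI-HN1 and 4.67 in NHRI-HN2. Over the 7304 genes the median was 10.08 and 10.25, a gap in favor of NHRI-HN2. All 13 housekeeping genes were closer than 2 units, with a median difference of -0.01. Actb was 18.62 in NHRI-HN1 and 18.91 in NHRI-HN2, and Gapdh 18.21 and 18.12. None of the 13 immune, 11 endothelial and 8 melanocyte marker genes reached 8 in either line. The highest of them was 6.13 in NHRI-HN1 and 6.03 in NHRI-HN2. Markers of some other cell types did reach 8. Of 18 measured fibroblast markers 8 were counted, with 3 higher in NHRI-HN1, 2 lower and 3 closer than 2 units. Of 11 neural and Schwann markers 4 were counted, with 1 higher, 2 lower and 1 closer. Of 10 cartilage and bone markers 2 were counted, with 1 higher and 1 lower. The Y-linked gene Eif2s3y was 10.94 in NHRI-HN1 and 10.45 in NHRI-HN2.

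**Figure D1:**
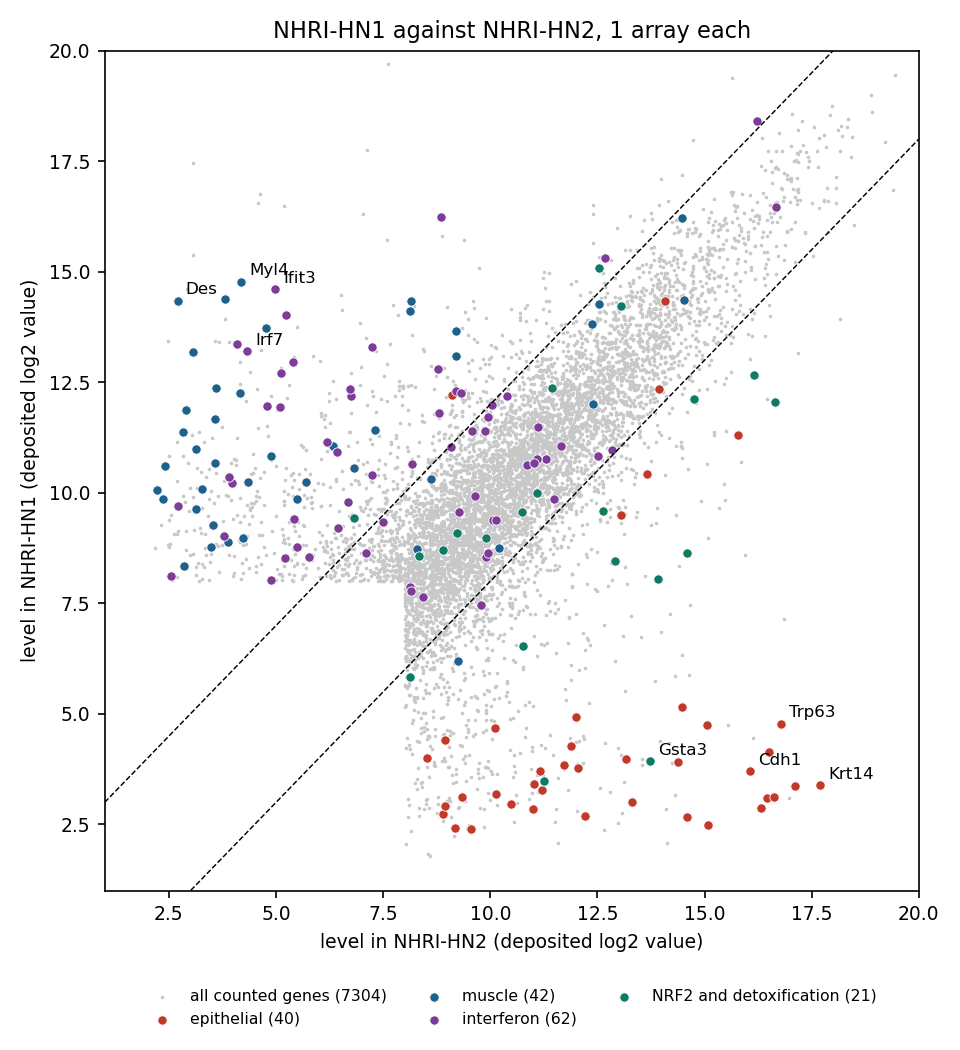
Level of each of the 7304 counted genes in NHRI-HN1 (vertical axis) against NHRI-HN2 (horizontal axis), both as deposited log2 values of 1 array. Dashed lines mark a difference of 2 units either way. Colors mark the counted members of the epithelial, muscle, interferon and NRF2 lists. Epithelial genes fill the lower right corner, while 33 of 42 muscle and 34 of 62 interferon genes lie above the upper dashed line and the others mostly between the lines.

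Keratinocyte genes made up most of the lowest differences. The lists of squamous factors, epithelial identity, keratins, desmosomes and hemidesmosomes held 40 counted genes, of which 37 were at least 2 units lower in NHRI-HN1, 1 was higher and 2 were closer, with a median of -7.74. Of the squamous transcription factors, 10 of 10 counted genes were lower. Trp63, which encodes p63, was 4.78 in NHRI-HN1 and 16.78 in NHRI-HN2. Grhl2, a keeper of epithelial gene expression, was 2.40 and 9.55, and Barx2, a homeobox factor of oral epithelium, 3.29 and 11.21. In NHRI-HN1 Grhl2 and Barx2 stood near the lower quartile of the array and Trp63 near its median, while all 3 were above its upper quartile in NHRI-HN2. Sox2 and Klf4, which also serve as stemness markers, were 3.85 and 4.93 in NHRI-HN1 and 11.71 and 11.99 in NHRI-HN2. Klf5 (9.51 in NHRI-HN1 and 13.05 in NHRI-HN2) and Tfap2a (10.42 and 13.65) had the smallest gaps of the list and stayed above 8 in both lines.

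The structural genes of the keratinocyte showed the same direction. Krt14, the type I keratin of basal cells, had the largest negative difference of all counted genes, at 3.39 in NHRI-HN1 and 17.70 in NHRI-HN2. Its partner Krt5 was 3.09 and 16.46, and Krt17, a keratin of activated keratinocytes, 2.48 and 15.07. The other counted keratin, Krt16, was lower by the same rule, while 15 further measured keratins did not reach 8 in either line. All 8 counted desmosome genes were lower, with a median of -10.39. Dsp, the desmoplakin that ties keratin to the junction, was 2.67 in NHRI-HN1 and 14.60 in NHRI-HN2. Perp, a desmosomal membrane protein, was 3.37 and 17.12, and the desmosomal cadherins Dsc3 and Dsg3 were 2.88 and 3.91 in NHRI-HN1 and 16.32 and 14.37 in NHRI-HN2. Jup, the plakoglobin that also works at other cell junctions, stayed above 8 in both lines, at 11.32 and 15.78. Among hemidesmosome genes the chains with keratinocyte-specific use were lower. Lama3 of laminin-332 was 3.13 in NHRI-HN1 and 16.63 in NHRI-HN2, Col17a1 was 4.15 and 16.51, and Itgb4 was 5.15 and 14.47. Itga6, the integrin partner of Itgb4, did not follow, at 14.33 in NHRI-HN1 and 14.08 in NHRI-HN2, and Dst, a cytoskeletal linker with muscle and nerve forms, was higher, at 12.22 and 9.10.

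E-cadherin and the factors around it completed this group. Cdh1 was 3.71 in NHRI-HN1 and 16.06 in NHRI-HN2, and the other 10 counted genes of epithelial identity were also at least 2 units lower. They included Esrp1, the splicing regulator of epithelia (2.70 and 12.21), Spint2, a protease inhibitor of epithelia (3.71 and 11.16), and Rab25 (4.28 and 11.89). Tns4, a focal adhesion protein of epithelial tumors, was 3.09 in NHRI-HN1 and 16.98 in NHRI-HN2. Serpinb5, the serpin maspin, was 2.84 and 14.10, and Spink5, a protease inhibitor of stratified epithelium, 4.46 and 16.14. Of the 13 measured keratinocyte markers, 12 were counted, none exceeded 5.15 in NHRI-HN1 and their median difference was -12.18. By these markers NHRI-HN1 lacked a basal keratinocyte profile on this array and NHRI-HN2 held one. None of the 19 measured keratins exceeded 5.03 in NHRI-HN1. The paper, in contrast, reports staining of NHRI-HN1 cells and of their tumors with a pan-cytokeratin antibody. That is a protein measure, and the reason for the contrast with RNA was not tested. Genes of the cornified envelope, the outer layer made by terminally differentiated keratinocytes, did not reach 8 in either line for 20 of 22 measured, with Ivl at 4.07 in NHRI-HN1 and 4.89 in NHRI-HN2 and Lor at 2.72 and 2.79.

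The parents split these epithelial genes into 2 sets. Grhl2, Esrp1, Lama3, Col17a1 and Dsg3 were already dim in M1-2, at 2.52, 2.31, 3.24, 3.43 and 3.72, against 10.42, 13.15, 16.57, 17.30 and 15.44 in M2-3. Krt14, Cdh1, Perp, Dsp, Pkp1, Itgb4, Sox2 and Klf4 were not. Krt14 was 15.38 in M1-2 and 18.76 in M2-3, Cdh1 14.82 and 16.31, and Sox2 11.90 and 11.80. For this second set, therefore, NHRI-HN1 was the only line of the 4 under 8. Over the 40 counted epithelial genes, 18 had NHRI-HN1 at least 2 units beyond all 3 other lines and 25 had both NHRI-HN1 and M1-2 at least 2 units apart from both NHRI-HN2 and M2-3, and a gene could meet both conditions.

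Skeletal muscle genes were the counterpart on the higher side. The lists of myogenic regulators, myoblast fusion, sarcomere and neuromuscular receptor genes held 86 measured genes, of which 42 were counted. Of these 42, 33 were at least 2 units higher in NHRI-HN1, 1 was lower and 8 were closer, with a median of 5.82. All 7 counted myogenic regulators were higher, while 9 of the 16 measured did not reach 8 in either line. Among the counted ones, Myf5, Myog, Mef2c and Pax3 reached 8 only in NHRI-HN1 and so could enter only as higher there. Myf5, which commits cells to the muscle lineage, was 11.38 in NHRI-HN1 and 2.82 in NHRI-HN2, and Myog, which drives their differentiation, was 12.25 and 4.17. Tbx1, a factor of head muscle and pharyngeal progenitors, was 14.12 and 8.13. The related regulator Myod1 was at the dim end in both lines, at 3.32 in NHRI-HN1 and 2.48 in NHRI-HN2, and Pax7 reached only 6.55 and 2.55, so neither was counted. Myf6, the fourth member of the Myod1 family, was likewise dim, at 3.23 and 2.25.

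Some genes of later muscle steps were bright as well. Mymk, the membrane protein that fuses myoblasts, was 14.38 in NHRI-HN1 and 3.82 in NHRI-HN2, and Cdh15, the cadherin of myoblasts, was 9.64 and 3.13. Boc, a cell surface co-receptor of the same list, had the opposite direction, at 6.19 and 9.24. Among sarcomere genes, 15 of 18 counted were higher and none was lower. Des, the intermediate filament of muscle, was 14.35 in NHRI-HN1 and 2.70 in NHRI-HN2, the embryonic myosin light chain Myl4 was 14.78 and 4.18, and the light chain Myl1 was 13.18 and 3.06. The other 3 counted sarcomere genes were Tpm1, Tpm2 and Casq2. The tropomyosins Tpm1 (16.22 and 14.47) and Tpm2 (14.27 and 12.53) are used by many cells. Casq2, a calcium store protein of muscle, was 8.75 and 10.20, with 3.76 in M1-2 and 12.80 in M2-3. Of the 5 subunits of the muscle acetylcholine receptor, 4 were higher. Chrnd was 11.88 in NHRI-HN1 and 2.89 in NHRI-HN2, Chrna1 11.68 and 3.58, and Chrng, the fetal subunit, 9.87 and 2.36, whereas Chrne, the adult subunit, was dim in both, at 2.71 and 2.46. Agrn, which nerve terminals release to cluster the receptor, was 12.02 and 12.40 and so did not differ by the size rule. In the parents, Myog was 4.12 in M1-2 and 3.46 in M2-3, Myl4 3.99 and 3.92, and Chrnd 3.16 and 3.46. For 28 of the 42 counted muscle genes NHRI-HN1 was at least 2 units beyond all 3 other lines. Smooth muscle genes did not share this pattern: Des was the only one of 7 counted genes past 2 units, and Acta2 was 15.74 in NHRI-HN1 and 16.02 in NHRI-HN2.

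Promoter windows of muscle genes are shown because muscle regulatory factors of the Myf5 and Myog family bind E-boxes. In the RefSeq promoters of GRCm38.p6 (250 bases before to 50 bases after each gene start), the E-box CAGCTG, which reads alike on both strands, was found in 11 of 29 promoters of the higher muscle genes (37.9%), against 16.3% of all 32851 promoters and 14.3% of those of the counted genes. It was also in 25.9% of promoters of the higher interferon genes and 26.3% of those of the lower epithelial genes. Another E-box, CACCTG, was in 24.1% of the muscle promoters, against 47.4% of the epithelial ones and 20.2% of all promoters. These 29 promoters belong to 23 of the 33 higher muscle genes. The windows below give 20 bases on each side of the E-box, which stands in capitals, 5′ to 3′ on the strand of the gene. Des is at chr1:75360236-75360281 (+), Chrna1 at chr2:73580357-73580402 (-), Mylpf at chr7:127211537-127211582 (+) and Chrng at chr1:87205659-87205704 (+).
Des: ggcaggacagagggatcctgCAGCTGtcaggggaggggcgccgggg
Chrna1: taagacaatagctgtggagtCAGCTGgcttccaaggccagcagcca
Mylpf: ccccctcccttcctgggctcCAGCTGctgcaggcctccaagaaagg
Chrng: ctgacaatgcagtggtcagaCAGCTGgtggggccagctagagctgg
A match of these letters is not evidence of binding, and no binding was measured in these lines.

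Interferon-stimulated genes were higher in NHRI-HN1 in nearly the same one-sided way. Of 36 counted effector genes, 27 were at least 2 units higher, none was lower and 9 were closer, with a median of 4.01. Ifit3 and Ifit1, which bind foreign RNA or its translation machinery, were 14.60 and 12.70 in NHRI-HN1 and 4.98 and 5.11 in NHRI-HN2. Oasl2, a relative of the enzymes that sense double-stranded RNA, was 14.02 and 5.24. Usp18, which removes Isg15 from proteins and dampens the interferon receptor, was 12.95 and 5.39, and Isg15 itself was 10.23 and 3.97. Bst2, the tether that holds budding virus at the cell surface, was 16.25 and 8.85. Probes for close paralogs such as Ifit3 and Ifit3b (13.37 and 4.09) or Oas1a and Oas1g may share signal. Ifitm2 (16.47 and 16.67) and Isg20 (9.93 and 9.65) did not differ by the size rule, and Mx1 (4.37 and 3.08) and Mx2 (7.01 and 5.17) did not reach 8.

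The genes that carry the interferon signal were mostly alike. Of 14 counted receptors, kinases and factors, 3 were higher and 11 closer than 2 units, with a median of -0.37. The 3 were Irf7 (13.21 in NHRI-HN1 and 4.32 in NHRI-HN2), Irf9 (10.40 and 7.25) and Stat2 (11.81 and 8.80), of which the last pair are subunits of ISGF3 and all are themselves inducible by interferon. The receptor subunit Ifnar2 was 11.49 and 11.11, and the kinases Jak1 and Tyk2 were 9.39 each in NHRI-HN1 and 10.07 and 10.14 in NHRI-HN2. Nearest to the size rule among the closer genes were the other subunit Ifnar1 (11.03 in NHRI-HN1 and 9.09 in NHRI-HN2) and the factor Irf1 (10.97 and 12.84). Ifnb1, the gene of interferon-beta, was at the dim end, at 3.63 in NHRI-HN1 and 3.79 in NHRI-HN2. Of 13 counted genes of nucleic acid sensing, 4 were higher, 1 was lower and 8 were closer than 2 units. Sting1, the adaptor of cytosolic DNA sensing, was 11.95 in NHRI-HN1 and 5.10 in NHRI-HN2. The RNA sensors Ddx58 and Dhx58 were 12.25 and 8.03 in NHRI-HN1 and 9.31 and 4.89 in NHRI-HN2. The closer ones included Cgas (7.64 in NHRI-HN1 and 8.42 in NHRI-HN2) and Mavs (9.87 and 11.49). Tlr2, a receptor for bacterial lipoproteins, was lower, at 7.46 and 9.79. The interferon effectors had a median of 1.05 between the parents, with 10 of the 36 at least 2 units higher in M1-2 than in M2-3. Ifit3 was 4.72 in M1-2 and 3.77 in M2-3, and Irf7 3.77 and 2.93, so the level in NHRI-HN1 exceeded that of all 3 other lines. This held by at least 2 units for 25 of the 36 effectors.

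Promoter windows of 4 of these genes show the ISRE core searched, which is GAAA, 2 bases of any kind and GAAA again, or TTTC, 2 bases and TTTC where it lies on the other strand. The core was found in 16 of 27 promoters of the higher interferon genes (59.3%), which belong to 24 of these 34 genes, against 3.44% of all promoters and 3.15% of those of the counted genes. Over all genes at least 2 units higher it stood in 7.43% of promoters, and over those at least 2 units lower in 2.84%. Capitals mark the core, or overlapping cores, within the windows. Ifit3 is at chr19:34583387-34583436 (+), Ifit1 at chr19:34640765-34640833 (+), Bst2 at chr8:71537567-71537622 (-) and Isg15 at chr4:156200855-156200916 (-).
Ifit3: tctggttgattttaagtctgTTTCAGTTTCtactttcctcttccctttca
Ifit1: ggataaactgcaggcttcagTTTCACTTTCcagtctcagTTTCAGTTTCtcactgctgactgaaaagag
Bst2: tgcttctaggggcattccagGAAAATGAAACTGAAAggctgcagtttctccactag
Isg15: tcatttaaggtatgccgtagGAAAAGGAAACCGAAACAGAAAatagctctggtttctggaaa
Isg15 carried 3 overlapping cores, Bst2 and Ifit1 carried 2 each, and Ifit3 carried 1. These are matches of letters only. The genes came from hand-written lists of interferon genes, and no share was computed for list members that were not higher. The share therefore does not bear on the difference between the lines.

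**Figure D2:**
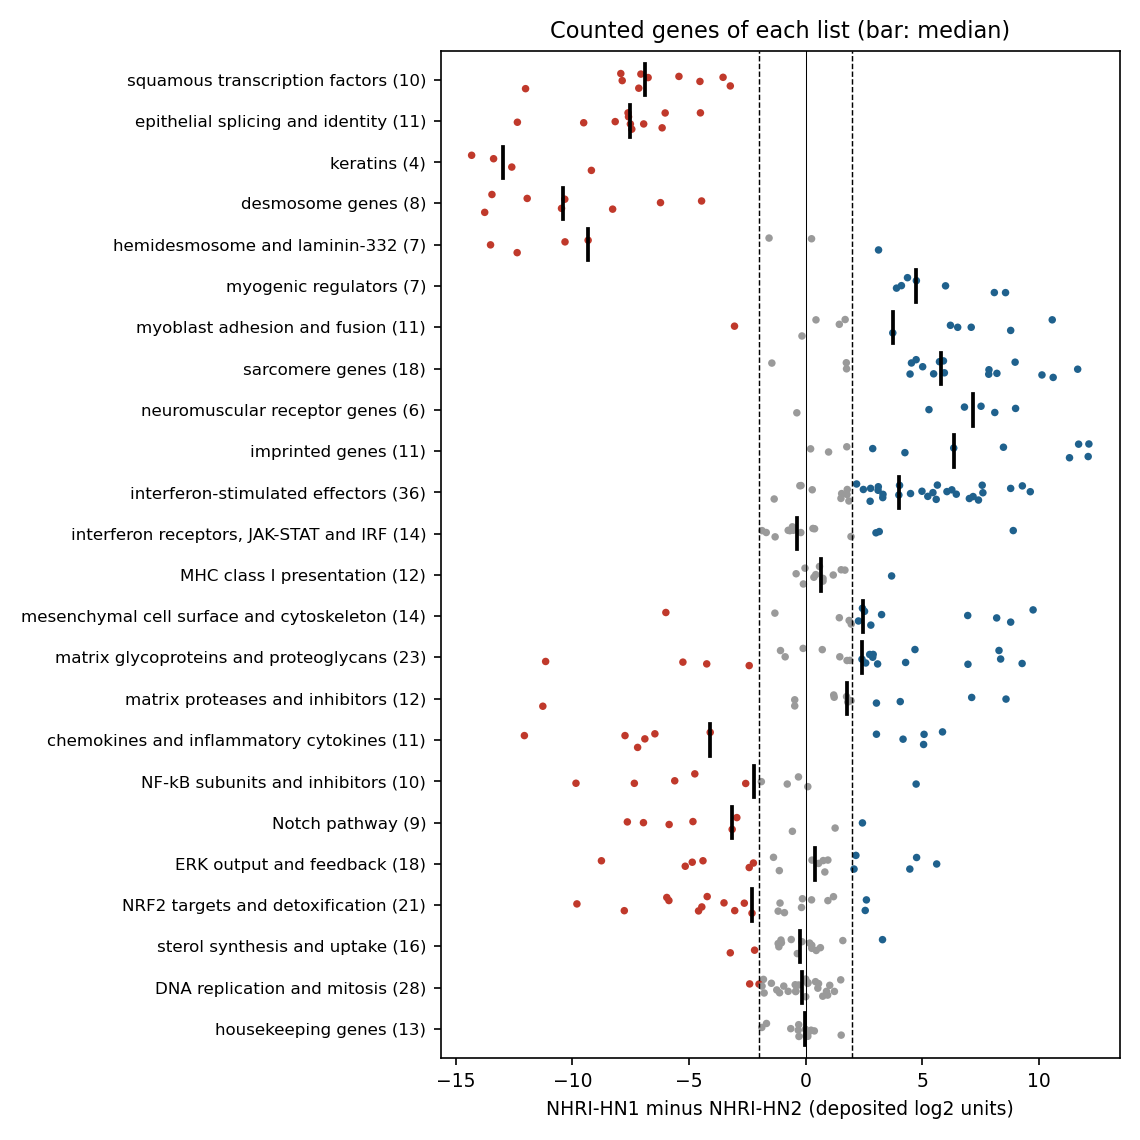
Difference of NHRI-HN1 minus NHRI-HN2 for the counted genes of the lists named at the left, in deposited log2 units. Each point is 1 gene, blue where at least 2 units higher, red where at least 2 units lower and grey where closer, the bar is the median of the list and the number in brackets is its counted genes. Epithelial lists lie wholly or mostly to the left, muscle, imprinted and interferon effector lists to the right, and housekeeping and replication genes around 0.

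Imprinted genes and the insulin-like growth factor (IGF) axis gave several of the largest positive differences. Of 11 counted imprinted genes, which are expressed from only one parental allele, 8 were higher and none lower, with a median of 6.34. Igf2, a fetal growth factor, was 16.75 in NHRI-HN1 and 4.62 in NHRI-HN2. Mest, a gene of fetal mesoderm, was 19.71 and 7.61, and Peg10 and Peg3 were 16.49 and 14.60 in NHRI-HN1 and 5.19 and 2.91 in NHRI-HN2. The parents divided these genes: Igf2 was 12.23 in M1-2 and 3.72 in M2-3 and Mest 17.53 and 3.68, whereas Peg10 was 4.91 and 3.04 and Ndn, which was 11.15 in NHRI-HN1 and 2.68 in NHRI-HN2, was 2.45 and 2.81. The binding proteins that hold IGF outside the cell were exchanged rather than shifted together. Igfbp5 was 17.76 in NHRI-HN1 and 7.12 in NHRI-HN2 and Igfbp4 12.18 and 7.95, while Igfbp2 was 7.14 and 16.85 and Igfbp7 13.94 and 18.16. The receptor Igf1r was 12.41 and 10.67.

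Mesenchymal and matrix genes were higher less uniformly. The lists of EMT factors, mesenchymal surface, collagen, matrix protein, protease and smooth muscle genes held 71 counted genes, of which 31 were higher, 8 lower and 32 closer, with a median of 1.84. The median between the parents over the same genes was 3.97, with 53 of the 71 at least 2 units higher in M1-2 than in M2-3. Zeb1, a repressor of E-cadherin, was 13.37 in NHRI-HN1 and 7.65 in NHRI-HN2. Snai2, another such repressor that keratinocytes also use, was bright in both, at 15.09 and 16.40, and Snai1 (5.38 and 3.91) and Twist1 (7.37 and 4.48) did not reach 8. Cdh2, the N-cadherin, was 12.38 in NHRI-HN1 and 3.60 in NHRI-HN2.

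Several mesenchymal genes were far brighter in NHRI-HN2 than in its parent. Vim was 17.99 in NHRI-HN1 and 14.74 in NHRI-HN2, against 17.12 in M1-2 and 6.90 in M2-3. Prrx1, a mesenchymal homeobox factor, was 15.24 and 14.06 in the sphere-selected lines and 15.22 and 5.63 in the parents, and Fn1, fibronectin, was 16.20 and 13.77 against 17.26 and 8.72. NHRI-HN2 therefore held the keratins described above together with these mesenchymal transcripts, and bulk RNA cannot tell whether the same cells carried both. The same limit applies to every group: fewer cells of a kind and less RNA per cell look alike here.

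Single matrix genes still set the lines far apart. Col3a1, a fibrillar collagen, was 16.55 in NHRI-HN1 and 4.59 in NHRI-HN2, while Col1a1 was 8.48 and 10.50 and so just past the size rule in the other direction. Bgn, the proteoglycan biglycan, was 16.31 and 7.04. Lama2, the laminin chain of muscle basement membrane, was 11.31 and 3.03, with both parents dim at 3.69 in M1-2 and 3.94 in M2-3. Ddr2, a receptor for fibrillar collagen, was 13.42 and 3.68, and the gelatinase Mmp2 was 13.24 and 4.66. Against this direction, Postn, the matrix protein periostin, was 3.16 in NHRI-HN1 and 14.30 in NHRI-HN2, and Tnc, tenascin-C, was 10.19 and 15.45. The largest positive difference of all counted genes was that of Tmem47, a membrane protein of cell junctions, at 17.45 in NHRI-HN1 and 3.07 in NHRI-HN2, followed by Slc14a1, a urea transporter, at 15.37 and 3.05.

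**Figure D3:**
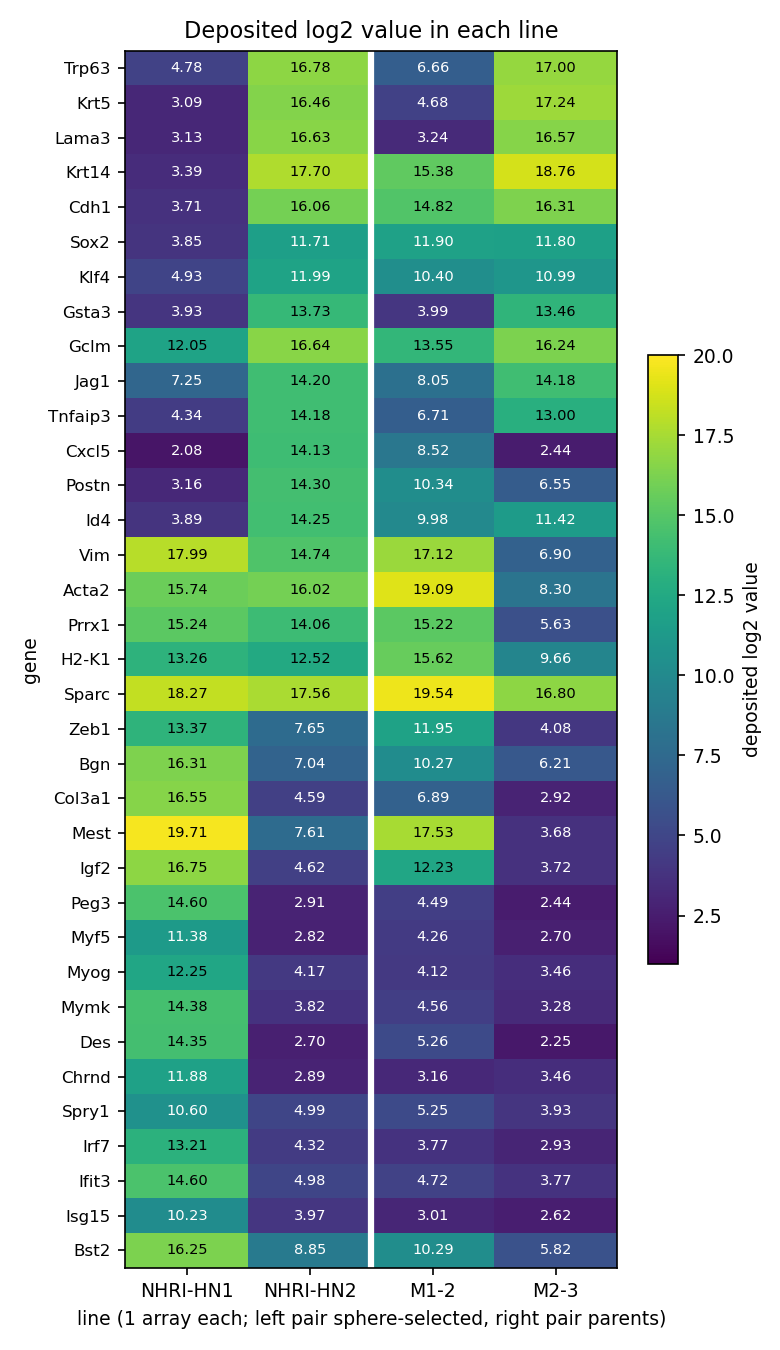
Deposited log2 value of selected genes in NHRI-HN1, NHRI-HN2, M1-2 and M2-3, 1 array each, printed in each cell and shown by color. Krt14, Cdh1 and Sox2 are dim in NHRI-HN1 alone, Lama3 and Krt5 are dim in NHRI-HN1 and M1-2, Vim and Prrx1 are under 8 in M2-3 alone, and Myog, Mymk and Ifit3 are bright in NHRI-HN1 alone.

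Chemokines and cytokines were divided, with 5 of 11 counted genes higher, 6 lower and none closer. The lower ones included chemokines that draw neutrophils and monocytes. Cxcl5 was 2.08 in NHRI-HN1 and 14.13 in NHRI-HN2, Cxcl1 3.68 and 10.57, and Ccl2 7.47 and 14.67. Il1rn, the antagonist of the interleukin-1 receptor, was 4.44 and 12.18. The higher ones were Cxcl12 (10.74 in NHRI-HN1 and 4.88 in NHRI-HN2), a chemokine of stromal cells, Il33 (10.28 and 5.21) and Tslp (10.45 and 5.40), both alarmins, with Ccl5 (8.18 and 4.01) and Csf1 (15.99 and 12.96), the growth factor of macrophages. Csf1 was also bright in M1-2, at 16.86, and dim in M2-3, at 6.65. Of 10 counted NF-kB subunits, inhibitors and related genes, 5 were lower, 1 was higher and 4 were closer. The inhibitors Tnfaip3 (4.34 in NHRI-HN1 and 14.18 in NHRI-HN2) and Nfkbia (8.60 and 15.94) were lower, while the inhibitor Tnip1 was 6.30 and 8.20. The subunits were split, with Rel at 6.67 and 12.28 and Rela at 14.21 and 14.12. Casp1, the protease of the inflammasome, was 3.29 in NHRI-HN1 and 11.82 in NHRI-HN2, with 11.15 in M1-2 and 12.68 in M2-3.

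Genes that present antigen differed little. Of 12 counted MHC class I genes, 1 was higher and 11 were closer than 2 units, with a median of 0.67. H2-K1 was 13.26 in NHRI-HN1 and 12.52 in NHRI-HN2, H2-D1 11.11 and 10.76, and B2m, the light chain, 18.57 and 17.05, although probes of H2 genes may share signal. The exception was Psmb8, a subunit of the immunoproteasome, at 9.13 and 5.45. The parents were further apart on these genes, with 9 of the 12 at least 2 units higher in M1-2 than in M2-3 and H2-K1 at 15.62 and 9.66. Cd274, the ligand PD-L1, was dim in both sphere-selected lines, at 4.15 and 3.77. Of 12 counted genes of immune checkpoint and evasion, 4 were higher, 2 lower and 6 closer than 2 units. Lgals1, a galectin that restrains T cells, was 19.38 in NHRI-HN1 and 15.65 in NHRI-HN2, with 18.29 in M1-2 and 9.53 in M2-3. Ulbp1, a ligand of the NKG2D receptor of killer cells, was 9.88 and 4.15, against 7.40 in M1-2 and 3.33 in M2-3. The lower ones were Cd80 (7.01 in NHRI-HN1 and 9.29 in NHRI-HN2) and Ptgs2 (9.78 and 12.46).

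In growth signaling, the 18 counted genes of ERK output and feedback were spread, with 5 higher, 6 lower and 7 closer. The Sprouty inhibitors were higher, with Spry1 at 10.60 in NHRI-HN1 and 4.99 in NHRI-HN2 and Spry2 at 13.20 and 8.45. The factor Etv1 was also higher (12.33 and 7.87), while Etv4 was lower (7.62 and 9.86) and Etv5 closer than 2 units (12.34 and 12.07). Immediate early genes were lower: Egr1 was 10.70 and 15.86, Ier3 5.89 and 14.64, and Myc 10.65 and 15.05. The phosphatase Dusp6 was 12.72 and 13.85. Of 12 counted growth factor receptors, 3 were higher, 2 lower and 7 closer. Fgfr1 was 12.35 in NHRI-HN1 and 8.68 in NHRI-HN2 and Mertk 9.14 and 2.90, while Fgfr2, the form typical of epithelia, was 4.63 and 9.90 and Ntrk2 2.55 and 10.55. Egfr (6.26 and 8.90) and Erbb2 (8.29 and 10.47) were lower, and so was the ligand Nrg1 (5.86 and 14.31). Errfi1, a feedback inhibitor of Egfr, was higher, at 14.98 and 11.36.

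Notch genes were lower in 6 of 9 counted cases, with 1 higher, 2 closer and a median of -3.15. The target Hes1 was 4.37 in NHRI-HN1 and 12.01 in NHRI-HN2, the ligand Jag1 7.25 and 14.20, and the receptor Notch1 5.18 and 10.01. Notch2 (10.40 and 9.14) did not follow, and the ligand Dll1 was higher, at 9.23 and 6.80. Hes1, Jag1 and Notch1 were set apart alike between the parents, at 5.93, 8.05 and 4.27 in M1-2 and 11.69, 14.18 and 9.96 in M2-3. Of 12 Wnt genes, 4 were lower, among them the ligand Wnt10a (2.87 in NHRI-HN1 and 9.75 in NHRI-HN2) and the antagonist Sfrp1 (3.30 and 9.70), and the receptor Fzd2 was higher (12.42 and 7.93). Among 20 TGF-beta and BMP genes, 12 were closer than 2 units. The Id proteins, BMP targets that hold back differentiation factors, did not share a direction: Id4 was 3.89 in NHRI-HN1 and 14.25 in NHRI-HN2, Id3 4.87 and 9.64, Id1 8.26 and 7.70, and Id2 11.78 and 8.69.

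Stemness markers were not higher as a group in NHRI-HN1. Of 8 counted, 4 were lower, 3 closer and 1 higher, while 11 of the 19 measured did not reach 8 in either line. The lower ones were Cd44 and, already described in other groups above, Klf4, Sox2 and Myc. Cd44 was 14.24 in NHRI-HN1 and 16.50 in NHRI-HN2. Nanog (3.91 and 3.59), Pou5f1 (2.20 and 2.41) and Prom1 (3.17 and 3.11) were at the dim end in both lines and were not counted. The higher one was Alcam, an adhesion molecule, at 13.46 and 10.70. The paper compared NHRI-HN1 with M1-2 rather than with NHRI-HN2, and by protein, and reports more Klf4 and Nanog in NHRI-HN1. On the array Klf4 was 4.93 in NHRI-HN1 and 10.40 in M1-2, and Nanog 3.91 and 4.32.

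Detoxification genes formed a further lower group. Of 21 counted NRF2 targets and related enzymes, 11 were lower, 2 higher and 8 closer, with a median of -2.30. Gsta3, a glutathione transferase, was 3.93 in NHRI-HN1 and 13.73 in NHRI-HN2. Nqo1, a quinone reductase, was 8.47 and 12.92, Slc7a11, the cystine importer, 8.05 and 13.91, and Gclm, which limits glutathione synthesis, 12.05 and 16.64. The regulators were level, with Nfe2l2, which encodes NRF2, at 8.71 and 8.89 and Keap1 at 8.98 and 9.89. The parents showed a similar split, with 10 of the 21 at least 2 units lower in M1-2 than in M2-3. Cyp1b1, which activates carcinogens, was instead dim in NHRI-HN1 alone, at 3.48, against 11.25 in NHRI-HN2, 10.39 in M1-2 and 10.18 in M2-3.

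Proliferation genes were close in the sphere-selected lines. Of 28 replication and mitosis genes, 26 were closer than 2 units, and the median was -0.17, close to the -0.22 of all counted genes. Mki67 was 15.45 in NHRI-HN1 and 16.39 in NHRI-HN2, Top2a 12.43 in both, and Pcna 16.26 and 16.18. The parents were not alike here: 19 of the 28 were at least 2 units lower in M1-2 than in M2-3, with a median of -2.54. The share of metabolic genes past 2 units did not exceed the 21.1% of all counted genes. Sterol synthesis genes were closer than 2 units in 13 of 16 cases, with Hmgcs1 at 12.68 and 13.86, and fatty acid genes in 12 of 14, with Fasn at 11.53 and 10.69. Among glycolysis genes, the glucose transporter Slc2a1 was lower, at 13.17 in NHRI-HN1 and 17.19 in NHRI-HN2, and Eno3, the muscle enolase, was higher, at 11.09 and 5.58, while 12 of 15 were closer. Of 15 p53 targets and cell cycle inhibitors 11 were closer, and Cdkn1a was 14.36 and 13.28.

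Many of the differences stood between the parents as well. Of the 682 higher genes, 311 (45.6%) were also at least 2 units higher in M1-2 than in M2-3, 358 were closer than 2 units between the parents, and 13 ran the other way. Of the 862 lower genes the numbers were 417 (48.4%), 389 and 56. Over the same 7304 genes, 737 (10.1%) were at least 2 units higher and 941 (12.9%) at least 2 units lower in M1-2 than in M2-3. Sorted by all 4 lines, NHRI-HN1 was at least 2 units beyond each other line for 361 of the higher genes (52.9%) and 268 of the lower genes (31.1%). NHRI-HN2 was the line apart for 5 (0.733%) and 27 (3.13%). Both lines of the first tumor were apart from both lines of the second for 197 (28.9%) and 324 (37.6%), and 85 genes met this and the NHRI-HN1 condition together. NHRI-HN1 lay at least 2 units beyond its own parent, in the direction of the difference, for 375 higher and 324 lower genes, and NHRI-HN2 for 11 and 61. These genes were chosen for their gap between NHRI-HN1 and NHRI-HN2, and only moves that widen it were counted. Moves of NHRI-HN2 toward NHRI-HN1, such as that of Vim above, do not enter. The numbers therefore do not measure how far each line lay from its parent.

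**Figure D4:**
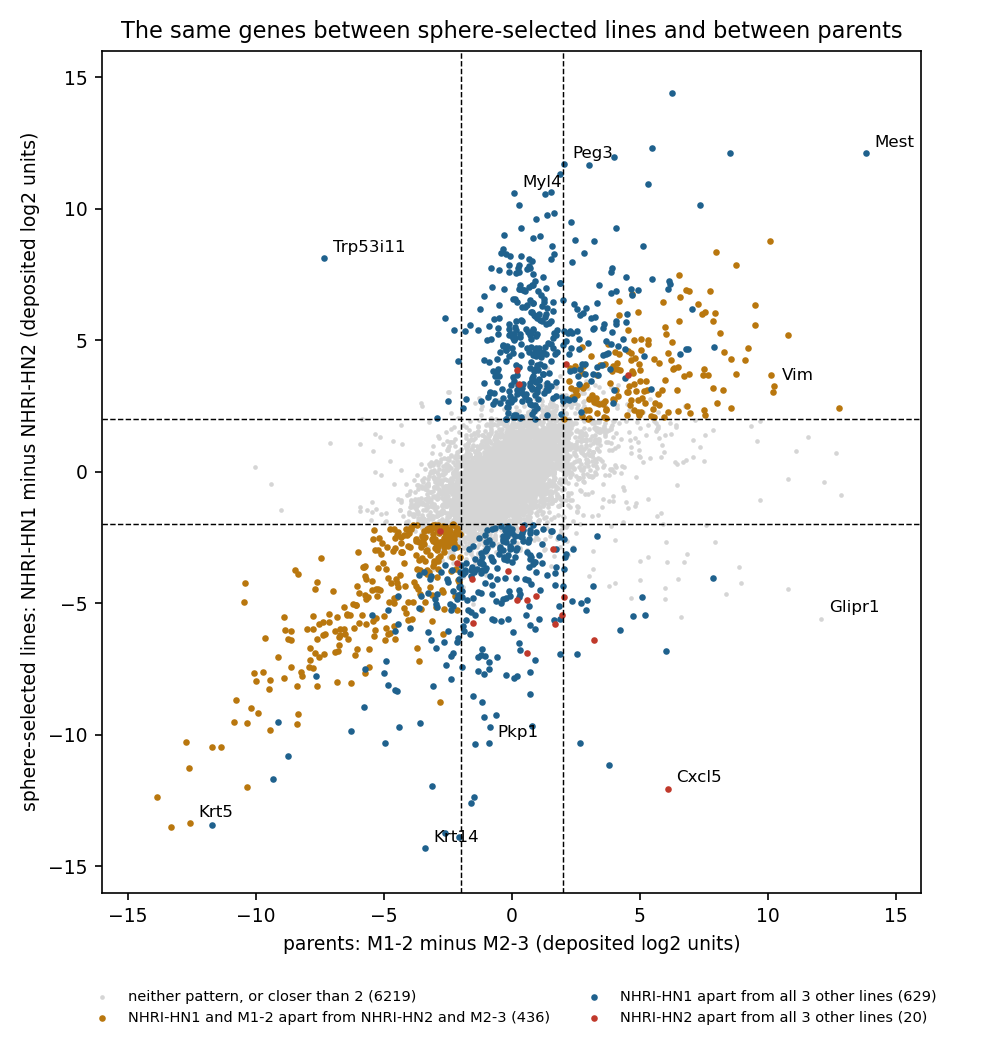
NHRI-HN1 minus NHRI-HN2 (vertical axis) against M1-2 minus M2-3 (horizontal axis) for the 7304 counted genes, in deposited log2 units, with dashed lines at 2 units. A gene that met several conditions is drawn under the first that it met. The order is NHRI-HN1 apart, then NHRI-HN1 and M1-2 apart from NHRI-HN2 and M2-3, then NHRI-HN2 apart. Myl4 and Pkp1 lie near 0 for the parents, Krt5 is far below 0 on both axes, and Cxcl5 and Trp53i11 have opposite signs on the axes.

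Some of the largest differences had no counterpart between the parents. Besides the muscle and interferon genes above, Tril, a helper of Toll-like receptor signaling, was 10.83 in NHRI-HN1, 2.51 in NHRI-HN2, 2.61 in M1-2 and 3.04 in M2-3. On the lower side, Pkp1, the plaque protein plakophilin, was 4.74 in NHRI-HN1 and 15.06 in NHRI-HN2, against 15.20 in M1-2 and 16.10 in M2-3. Anxa8, an annexin of epithelia, was 3.46 and 13.12 in the sphere-selected lines and 15.32 and 14.52 in the parents, and Cd24a, a surface glycoprotein of epithelial cells, 3.62 and 11.22 against 11.25 and 10.54. In each of these NHRI-HN1 alone was far from the other lines. Gfra2, a receptor of the glial cell line-derived family of ligands, and Glipr1 gave another arrangement: Glipr1 was 4.89 in NHRI-HN1, 10.47 in NHRI-HN2, 15.59 in M1-2 and 3.51 in M2-3, so the 2 sphere-selected lines and the 2 parents had opposite orders.

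Some genes that differed lay side by side in the genome. Among counted genes in RefSeq order, 11 runs of at least 4 neighbors had all members past 2 units in one direction, 6 higher and 5 lower; the members named here were chosen after their values were seen. One was the desmosomal cadherin cluster Dsc3, Dsc2, Dsg1b, Dsg3 and Dsg2, where Dsg1b was 3.43 in NHRI-HN1 and 8.38 in NHRI-HN2. Another was Krt14, Krt16, Krt17 and Jup. Of the higher runs, one held the interferon-inducible genes Ifi213, Ifi208, Ifi207, Ifi204 and Mndal, with Ifi207 at 13.08 in NHRI-HN1 and 5.43 in NHRI-HN2. A further one held Trim12a, Trim12c, Trim30a and Trim30d, with Trim30a at 9.71 and 2.70. Members of such clusters are near copies, so their probes may share signal. The run of Sema3d, Sema3a, Sema3e and Cacna2d1 joined 3 guidance ligands to a calcium channel subunit, with Sema3a at 12.44 in NHRI-HN1 and 5.30 in NHRI-HN2.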

How the data were processed

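Total RNA of 4 mouse lines was hybridized to Affymetrix Mouse Clariom S arrays, 1 per line. The authors deposited 1 value per probe set and array, made with Partek Genomics Suite (version 7 in the submitters' processing notes), taken here as log2 from their range. Their background correction, normalization and summarization were not given in the sources used here. NHRI-HN1 reached 19.71, which is higher than scanners of this type usually record in log2, so values may have been transformed further and 1 unit may not equal a 2-fold change. No detection calls came with them, and the number of arrays limits the precision.

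Of 22206 probe sets, 19572 had 1 symbol in the platform annotation and 2634 were unnamed here. The mean was taken for 55 genes with several probe sets, which gave 19505 genes. Differences, counts and medians were computed in Python 3.11.15 with pandas 2.3.3 and numpy 2.4.6, and drawn with matplotlib 3.10.9. The counting was tested on simulated data. With 1 array per line no test was made. Genes counted had a level of 8 or more in NHRI-HN1 or NHRI-HN2, and the size rule was 2 units.

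The gene lists were written by hand, and the comparison, its members and the lists were chosen with earlier results of these data known. Named genes are the 20 largest differences each way, up to 5 list members on the side of the list's median and 3 on the other side, genes the paper names, the 10 largest each way with parents within 1 unit or opposite by at least 2, and the genes at the size limit; a part of these is printed. The dim genes Myod1, Myf6, Pax7, Chrne, Ivl, Lor, Mx1, Mx2, Ifnb1 and Cd274 were named beyond this rule, after their values were seen. So were Etv4, Etv5, Ifnar1 and Ifnar2. Promoters were those of RefSeq on GRCm38.p6, and 5990 of the 7304 counted genes had one. Alternatives were other level minimums and size rules, quantile normalization, median centring, a floor of 5, and the brightest or all probe sets. No column of values was left unmapped.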

Additional observations from a re-analysis of the deposited data

Results flagged for a closer look

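For 10 genes the difference between the sphere-selected lines ran against the difference between their parents by at least 2 units each way. Each side is 1 array minus 1 array, and whether the 2 differences differ was not tested. Higher in NHRI-HN1 than in NHRI-HN2 were Trp53i11 by 8.13 units (M1-2 minus M2-3 -7.33), Crabp1, a binding protein of retinoic acid, by 5.85 (-2.62), Stc1, the secreted hormone stanniocalcin, by 5.38 (-2.28), Calcrl, a receptor of adrenomedullin, by 4.19 (-2.09), and Dock8, an activator of the small GTPase Cdc42, by 3.04 (-2.47). Lower were the chemokine Cxcl5, at -12.05 (parents 6.08), periostin, Postn, at -11.14 (3.79), Gpc3, a cell surface proteoglycan, at -10.30 (2.65), Foxa1, a transcription factor of endoderm and gland epithelium, at -6.92 (2.55), and the receptor Gfra2 at -6.81 (6.03). They are the 5 largest in each direction of 13 higher and 56 lower genes with this arrangement. Trp53i11 was 15.71 in NHRI-HN1, 7.58 in NHRI-HN2, 6.18 in M1-2 and 13.51 in M2-3. Gpc3 was 2.77 in NHRI-HN1 and above 11 in the other 3 lines.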

How the results depend on the processing

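With a minimum level of 10 the counts were 427 higher and 507 lower, with a size rule of 1 unit 1449 and 2092, and with a size rule of 4 units 300 and 321. Genes at least 2 units apart the same way between the parents numbered 728 in the main setting, 466 with the minimum of 10, 1956 with the size rule of 1 and 220 with that of 4. The median of the neural and Schwann marker list, -2.28 over 4 counted genes, was 0.01 with no minimum level. With no minimum the keratin median was -0.10 and that of the imprinted genes 0.98, because keratins and imprinted genes dim in both lines then enter. The chemokine median, -4.09 over the counted genes, was -1.82 after quantile normalization and -0.52 with no minimum level. With no minimum the Notch median was -0.46, against -3.15, and that of the NRF2 targets -1.42, against -2.30. Quantile normalization gave 778 higher and 734 lower genes and median centring 753 and 752, since the median of all counted genes is -0.22 and centring moves it toward 0; after quantile normalization 51.5% of the genes past 2 units were higher, against 44.2%. Other settings kept these counts within 1.5 times. Of 516 named differences tried under 4 settings, none of those past 2 units changed sign, and Col1a1 (-1.83 after quantile normalization), Mcm5 and Erbb2 were among those that crossed 2 units. A floor of 5 shortens differences against dim genes but cannot change the counts of higher and lower genes, since each counted gene reached 8 in 1 line. It lowered the number at least 2 units apart the same way between the parents from 728 to 690, as a counted gene can be dim in the parents. No paired analysis was possible because each line has 1 array, and no array could be left out.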

Other observations

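Differences were not spread evenly over the chromosomes. Of 456 counted genes on chromosome 1, 18.9% were at least 2 units higher in NHRI-HN1 and 6.14% at least 2 units lower, with a median of 0.72, against 9.34%, 11.8% and -0.22 for all counted genes. The median of these genes between the parents was 0.12. Chromosome 11, with 609 counted genes and a median of -0.75, had 7.06% higher and 17.1% lower, and its median between the parents was -0.73. Chromosome 5 also had a median of -0.75. DNA copy number was not measured on these arrays. Of 2634 probe sets unnamed here, 682 reached 8 in NHRI-HN1 or NHRI-HN2, of which 65 were at least 2 units higher and 61 at least 2 units lower.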
